A study of Mus musculus with 24 samples.

Results

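The genes described here encode 9 chains of the receptors that share the common gamma chain or gp130. They were taken by symbol from a table of read counts for 54446 gene identifiers: Il2ra, Il2rb, Il2rg, Il4ra, Il7r, Il15ra, Il21r, Il6ra and Il6st. Each of the 9 had 1 row, and all 9 passed the filter on low counts among 15325 genes tested. The counts came from mRNA sequencing of 24 libraries of CD4+ T cells from the spleens of C57BL6 mice. There were 3 WT mice, numbered 1, 3 and 4, and 3 Aim2-/- mice, numbered 1, 2 and 4, which lack a functional Aim2, a cytosolic sensor of double-stranded DNA. The same number in both genotypes names different animals. Each mouse gave an unstimulated library (0 h) and libraries at 3, 6 and 24 h of culture with anti-CD3 and anti-CD28 antibodies, a stand-in for antigen and costimulation. The Aim2-/- strain lacks AIM2 in every cell type, not in T cells alone. The methods of the study, written for all its experiments and not for these libraries in particular, describe animals matched for sex and age and cells enriched by removing other cells with antibodies, by which naive, memory and regulatory CD4+ T cells were not separated. Ages were not given in the sources used here.

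The common gamma chain, encoded by Il2rg, is a subunit of the receptors for IL-2, IL-4, IL-7, IL-9, IL-15 and IL-21, and it signals through the kinase JAK3. Each receptor adds chains of its own, such as IL-7Rα for IL-7, and IL-2 and IL-15 share the beta chain encoded by Il2rb. Gp130, encoded by Il6st, is the signalling chain for IL-6 and related cytokines, and IL-6Rα, encoded by Il6ra, binds IL-6. In resting CD4+ T cells IL-7 supports survival, and the high-affinity IL-2 receptor is completed by the alpha chain, CD25, which regulatory T cells carry at rest and other T cells gain on activation.

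Library totals lay between 19715161 and 21627018 counts, so 3 counts, the floor used for detection, corresponded to 0.145 CPM (counts scaled to a common library size, with TMM factors). The 7 CD4+ T cell markers were present in every library, with a summed level of 4422 to 4662 CPM in WT and 4427 to 4713 CPM in Aim2-/- cells at 0 h. Aim2, the targeted gene, went against 1 label. At 0 h it was measured at 75.0 and 67.5 CPM for WT 3 and WT 4 and at 15.7, 20.1 and 19.0 CPM for Aim2-/- 1, 2 and 4, but at 21.5 CPM for the mouse labelled WT 1, which also lay near the Aim2-/- mice at 3, 6 and 24 h (17.0, 11.5 and 5.57 CPM). The 4 libraries labelled WT 1 were kept under their label, and the calls between genotypes are given with and without this mouse. Markers of other cells were low, and several sums did not overlap between genotypes. At 0 h, the 8 B cell markers summed to 11.1 to 15.1 CPM in WT and 17.8 to 49.7 CPM in Aim2-/- libraries, the 7 myeloid markers to 31.9 to 53.3 and 102 to 335 CPM, the 5 neutrophil markers to 25.4 to 27.0 and 102 to 270 CPM, the 5 basophil and mast cell markers to 7.20 to 9.98 and 53.3 to 102 CPM, and the 5 NK cell markers to 35.8 to 56.1 and 98.6 to 119 CPM, with 0 markers of these lists at 0. In these bulk samples, fewer cells of a type and less RNA per cell cannot be told apart.

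On build GRCm38 the 9 genes lie on 6 chromosomes. Il2ra (chr2:11642807-11693193, plus strand) and Il15ra (chr2:11705290-11734317, plus strand) are direct neighbours, 12.1 kb apart, with 0 protein-coding genes between them. Il4ra (chr7:125552120-125579474, plus strand) and Il21r (chr7:125603429-125633570, plus strand) are also neighbours, 24.0 kb apart, with 0 protein-coding genes between them. Il2rb (chr15:78479256-78495271, minus strand) and Il7r (chr15:9505788-9530176, minus strand) share a chromosome but not a neighbourhood. Il2rg lies at chrX:101264378-101268255 (minus strand), Il6ra at chr3:89864059-89913196 (minus strand) and Il6st at chr13:112464070-112510086 (plus strand). The counts cover whole genes and do not resolve exons. Exons of Il2rg share 728 bases with Gm20489 on the same strand, exons of Il4ra share 571 bases with Gm44876 and those of Il6ra share 242 bases with Gm42809, both on the opposite strand. It was not stated whether the counting used strand, or how it treated reads in shared bases. The counts of these 3 genes could therefore include reads of the overlapping genes, or lack reads left out as shared.

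RefSeq promoters on GRCm38.p6, from 250 bases before to 50 bases after a start site, were found for 8 of the 9 genes, with 2 start sites for Il15ra; Il2rb had none in the table. The promoters of the neighbours Il2ra and Il15ra, which rose together after stimulation, and of Il7r and Il21r, which fell, are shown 5′ to 3′ on the strand of the gene. Capitals mark matches on either strand to 6 motifs of factors known to act in T cells, chosen after the expression values were known: the STAT site TTCNNNGAA, the AP-1 site TGANTCA, the NFAT core GGAAA, the forkhead site TGTTTAC, the Ets site CCGGAAG and an NF-κB site.
Il2ra, chr2:11642542-11642841, plus strand: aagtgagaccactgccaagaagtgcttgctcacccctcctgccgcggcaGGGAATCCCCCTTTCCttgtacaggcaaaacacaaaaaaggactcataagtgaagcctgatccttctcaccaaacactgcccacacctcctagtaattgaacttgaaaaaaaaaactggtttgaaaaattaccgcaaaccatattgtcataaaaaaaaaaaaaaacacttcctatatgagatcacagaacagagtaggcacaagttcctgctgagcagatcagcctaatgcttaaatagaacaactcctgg
Il15ra, first start site, chr2:11705043-11705342, plus strand: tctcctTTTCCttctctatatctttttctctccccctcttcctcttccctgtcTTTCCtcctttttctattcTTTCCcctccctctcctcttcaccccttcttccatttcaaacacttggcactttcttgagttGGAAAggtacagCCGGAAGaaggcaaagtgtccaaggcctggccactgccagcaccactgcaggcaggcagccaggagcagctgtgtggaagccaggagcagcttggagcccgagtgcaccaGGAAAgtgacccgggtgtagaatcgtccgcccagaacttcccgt
Il15ra, second start site, chr2:11705462-11705761, plus strand: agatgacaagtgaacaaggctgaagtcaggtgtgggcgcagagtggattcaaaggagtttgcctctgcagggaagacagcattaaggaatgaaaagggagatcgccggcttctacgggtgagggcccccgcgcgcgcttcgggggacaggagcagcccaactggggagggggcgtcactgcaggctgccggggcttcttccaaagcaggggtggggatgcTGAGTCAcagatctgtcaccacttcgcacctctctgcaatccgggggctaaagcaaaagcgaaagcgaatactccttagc
Il7r, chr15:9529827-9530126, minus strand: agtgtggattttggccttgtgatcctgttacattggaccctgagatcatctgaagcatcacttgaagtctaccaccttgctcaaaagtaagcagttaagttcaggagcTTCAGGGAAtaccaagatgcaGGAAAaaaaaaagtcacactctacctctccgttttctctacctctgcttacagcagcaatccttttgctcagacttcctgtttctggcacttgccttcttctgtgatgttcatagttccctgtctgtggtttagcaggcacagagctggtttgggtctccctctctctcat
Il21r, chr7:125603179-125603478, plus strand: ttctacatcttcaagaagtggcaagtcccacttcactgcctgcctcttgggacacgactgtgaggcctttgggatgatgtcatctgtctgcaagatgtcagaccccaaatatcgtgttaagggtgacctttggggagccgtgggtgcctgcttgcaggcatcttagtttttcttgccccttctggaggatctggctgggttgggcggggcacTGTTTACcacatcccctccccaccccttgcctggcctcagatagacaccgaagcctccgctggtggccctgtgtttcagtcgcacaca

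The Il2ra promoter held 2 overlapping matches to the NF-κB motif, directly before an NFAT core at -190 from the start site. Of 32851 promoters in the table, 8.46% held the NF-κB motif and 61.3% the NFAT core. The first Il15ra promoter held 5 NFAT cores and an Ets site at -104, a motif found in 8.86% of promoters, and the second held an AP-1 site at -30, found in 7.81%. The Il7r promoter held a STAT site at -142 and an NFAT core at -121; the STAT site was found in 8.3% of promoters. The Il21r promoter held a forkhead site at -38, found in 3.65%. Of the promoters not shown, that of Il4ra held an NF-κB match at 21 and 2 NFAT cores. The Il2rg promoter held an Ets site at -17 and 2 NFAT cores, and that of Il6st 2 NFAT cores. The Il6ra promoter held 0 matches to the 6 motifs. A match is a stretch of letters, and binding was not measured.

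Stimulation changed most of the 9 transcripts in opposite directions. Il2ra rose 5.24- to 8.98-fold and Il15ra 4.64- to 11.4-fold, Il7r, Il21r and Il6ra fell from 3 h on, and Il6st fell at 24 h, while Il2rg stayed within a narrow range. In WT cells 6 of 9 members were called at 3 h, where 32.6% of all genes tested were called, 6 of 9 at 6 h against 51.1% of all genes, and 7 of 9 at 24 h against 71.4%. In Aim2-/- cells the counts were 6, 7 and 8 of 9, with 30.7%, 51.2% and 70.3% of all genes. A gene is called where its adjusted p is under 0.05 in edgeR's quasi-likelihood test with Benjamini-Hochberg adjustment over all genes. The median log2 fold change of the 9 members was 0.06, -0.10 and -0.34 in WT cells at 3, 6 and 24 h, against 0.02, 0.02 and -0.01 over all genes. A large share of the transcriptome moved at 24 h, so the share of members called there was near that of all genes.

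**Figure D1:**
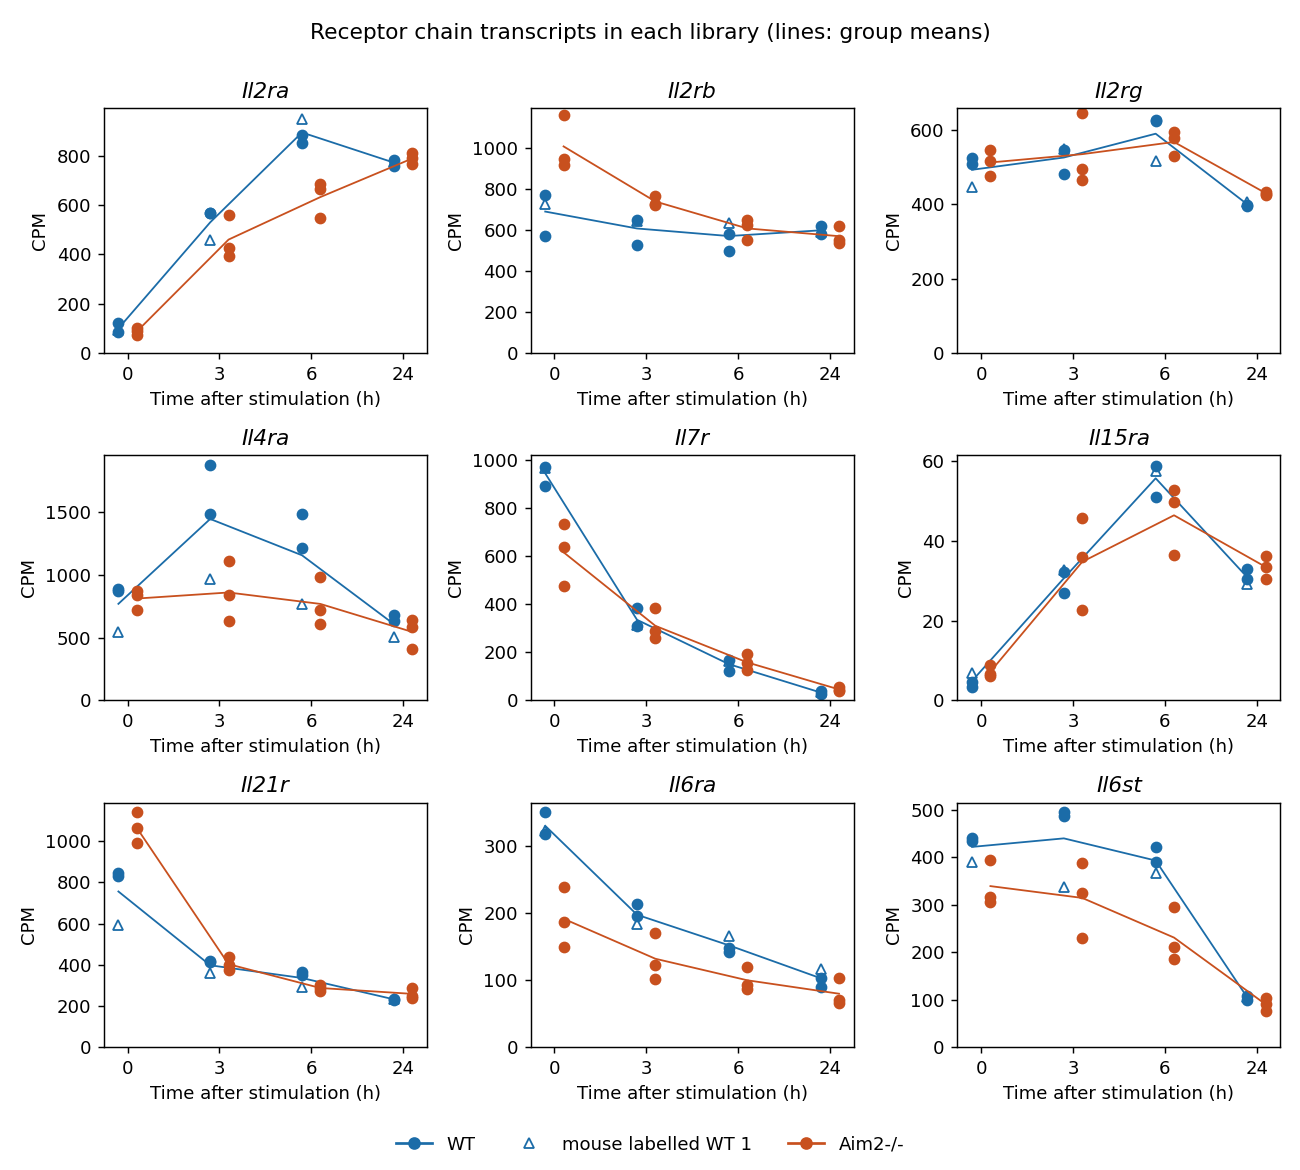
Transcript level in CPM (y axis, linear, from 0) of each receptor chain at 0, 3, 6 and 24 h after stimulation (x axis, not to scale) in 3 WT and 3 Aim2-/- mice; points are libraries, open triangles the mouse labelled WT 1, and lines join group means. Il2ra and Il15ra rise in every mouse, Il7r falls from 477 to 973 CPM at 0 h to 24.4 to 55.9 CPM at 24 h, and Il4ra rises in the WT mice.

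Il2ra encodes the alpha chain that raises the affinity of the IL-2 receptor. At 0 h its level was 92.6, 84.6 and 124 CPM in WT 1, 3 and 4 and 101, 73.9 and 89.1 CPM in Aim2-/- 1, 2 and 4. At 3 h it was 457, 567 and 567 CPM in WT and 395, 425 and 561 CPM in Aim2-/- cells. At 6 h the 3 WT libraries, at 948, 852 and 882 CPM, lay above the 3 Aim2-/- libraries, at 547, 666 and 685 CPM, and at 24 h all 6 libraries lay between 760 and 811 CPM. In WT cells the rise over 0 h was 2.40 ± 0.15 (log2, SE, n = 3 mice a group), 3.15 ± 0.16 and 2.94 ± 0.16 at 3, 6 and 24 h, and in Aim2-/- cells 2.39 ± 0.15, 2.85 ± 0.16 and 3.17 ± 0.16, with adjusted p of at most 2.4e-09 in edgeR's quasi-likelihood test. The highest group mean was thus at 6 h in WT cells and at 24 h in Aim2-/- cells. In the order of the 8 groups, Aim2-/- and WT cells at 24 h overlapped, as did Aim2-/- cells at 6 h, WT cells at 3 h and Aim2-/- cells at 3 h, while no stimulated library was as low as one at 0 h.

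Il15ra encodes the alpha chain that binds IL-15 and can present it to neighbouring cells. Its level at 0 h was 6.80, 4.6 and 3.25 CPM in WT and 8.96, 6.65 and 6.01 CPM in Aim2-/- cells. It reached 57.5, 58.7 and 51.1 CPM in WT and 36.6, 52.9 and 49.9 CPM in Aim2-/- cells at 6 h, and stood at 29.2 to 32.9 and 30.6 to 36.2 CPM at 24 h. All stimulated libraries lay above all libraries at 0 h. The log2 fold changes against 0 h were 2.65 ± 0.24, 3.51 ± 0.25 and 2.66 ± 0.24 in WT and 2.27 ± 0.24, 2.69 ± 0.24 and 2.21 ± 0.24 in Aim2-/- cells, with adjusted p of at most 5.0e-07 in edgeR's test. From 6 to 24 h it fell in WT cells, by 0.85 on the log2 scale (SE 0.22, adjusted p = 0.00226), whereas its neighbour Il2ra was not called between these times. Over the 24 libraries, the log2 CPM of these neighbours had a Pearson r of 0.935, which describes libraries that share mice and the stimulus.

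Il2rb encodes the beta chain that signals for IL-2 and IL-15. Its level at 0 h was 728, 574 and 772 CPM in WT and 1162, 917 and 949 CPM in Aim2-/- cells, and the groups did not overlap. By 24 h it lay between 537 and 623 CPM in all 6 mice. It fell in Aim2-/- cells at 3, 6 and 24 h, by 0.45, 0.73 and 0.82 on the log2 scale (SE 0.12 each, adjusted p = 0.00737, 3.6e-05 and 3.8e-06). The call at 3 h was lost without mouse Aim2-/- 1 or its 0 h library (adjusted p up to 0.0695). In WT cells it was called at none of the 3 times; at 6 h the log2 fold change was -0.27 ± 0.12 (adjusted p = 0.0639, and 0.0201 with mouse as a block).

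Il2rg, the common gamma chain itself, stayed between 395 and 645 CPM over the 24 libraries. It was 445, 525 and 507 CPM in WT and 515, 475 and 546 CPM in Aim2-/- cells at 0 h, and 406, 397 and 395 CPM and 434, 426 and 429 CPM at 24 h, so both genotypes ended below their own start. The fall from 0 to 24 h was 0.30 ± 0.11 in WT (adjusted p = 0.0164) and 0.25 ± 0.11 in Aim2-/- cells (adjusted p = 0.0412) on the log2 scale. It was called in WT at 6 h with an adjusted p of 0.049982, just under the threshold, at a log2 fold change of 0.26 ± 0.11 and with overlapping groups. These small changes depended on single mice: the WT call at 6 h was lost without any 1 of the 3 WT mice (adjusted p up to 0.303), that at 24 h without WT 3 or WT 4 (up to 0.0694), and the Aim2-/- call at 24 h without any 1 of the 3 Aim2-/- mice (up to 0.125). With all mice kept, the WT call at 6 h was also lost with another scaling (RLE), with DESeq2 and with no filter on low counts.

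**Figure D2:**
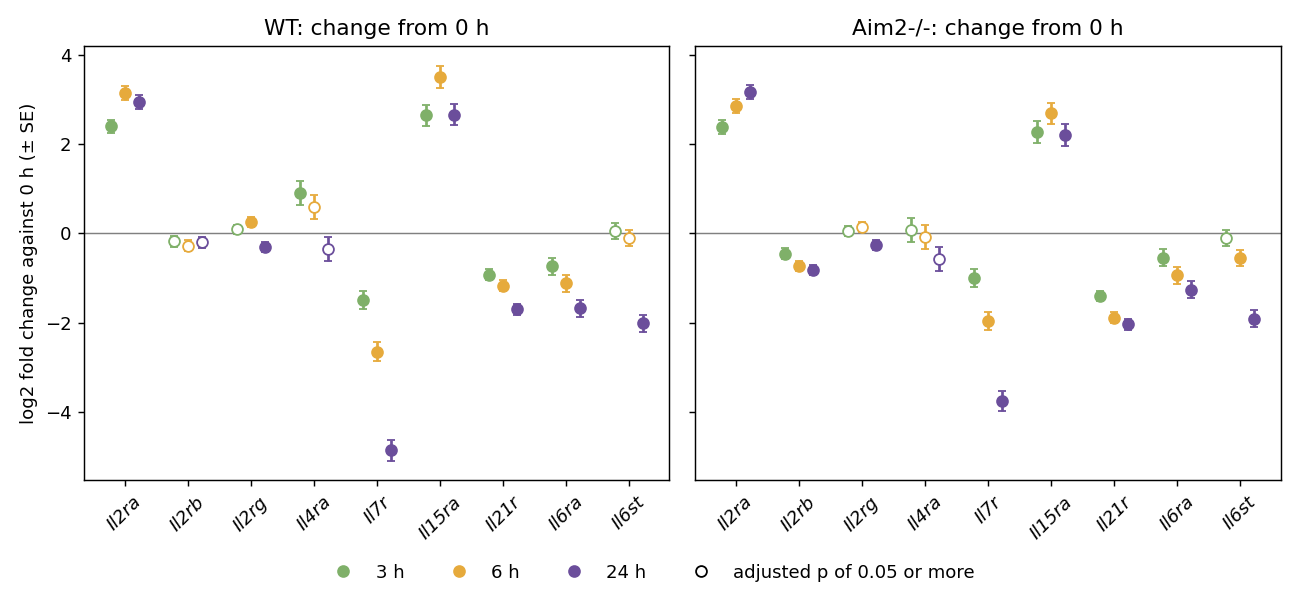
Log2 fold change against 0 h (y axis, ± SE of the edgeR fit) of each receptor chain at 3, 6 and 24 h, in WT (left) and Aim2-/- cells (right), n = 3 mice a group; filled points have an adjusted p under 0.05. Il2ra and Il15ra lie above 2 at every time in both genotypes, and Il7r reaches -4.86 in WT and -3.76 in Aim2-/- cells at 24 h.

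Il7r encodes IL-7Rα, which also serves the receptor for the cytokine TSLP. Its level at 0 h was 969, 895 and 973 CPM in WT and 477, 733 and 641 CPM in Aim2-/- cells. At 3 h it was 310 to 384 CPM in WT and 258 to 385 CPM in Aim2-/- cells, and at 6 h 123 to 167 and 127 to 191 CPM. At 24 h it was 34.1, 24.4 and 39.5 CPM in WT and 55.9, 42.5 and 38.2 CPM in Aim2-/- cells. The fall was stepwise in every mouse, and libraries of successive times did not overlap within a genotype. The log2 fold changes were -1.49 ± 0.20, -2.65 ± 0.21 and -4.86 ± 0.23 in WT and -0.99 ± 0.20, -1.96 ± 0.20 and -3.76 ± 0.22 in Aim2-/- cells, with adjusted p of at most 6.5e-04 in edgeR's test, and 24 h in WT cells corresponded to a 29.0-fold lower level.

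Il21r encodes the alpha chain for IL-21. It started at 593, 829 and 843 CPM in WT and 1140, 988 and 1062 CPM in Aim2-/- cells, which did not overlap. At 3 h the groups overlapped, at 363 to 417 and 376 to 436 CPM, and at 24 h they lay at 227 to 236 and 241 to 286 CPM. The log2 fold changes were -0.92, -1.17 and -1.70 in WT and -1.40, -1.89 and -2.04 in Aim2-/- cells (SE 0.12 each, adjusted p of at most 3.4e-06).

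Il4ra encodes the alpha chain for IL-4, also used for IL-13, and its course differed from that of its neighbour Il21r. In WT cells it went from 548, 873 and 891 CPM at 0 h to 972, 1491 and 1882 CPM at 3 h and 772, 1213 and 1490 CPM at 6 h, and back to 506, 637 and 685 CPM at 24 h. In Aim2-/- cells it was 722, 876 and 840 CPM at 0 h, 630, 1109 and 844 CPM at 3 h, 606, 984 and 719 CPM at 6 h and 413, 642 and 585 CPM at 24 h. Among the WT mice, the one labelled WT 1 was lowest at each time. The rise at 3 h in WT cells was 0.91 ± 0.27 on the log2 scale (adjusted p = 0.0131). It was lost without WT 3, without WT 4, or without the 0 h library of WT 1 or the 3 h library of WT 4 (adjusted p up to 0.107), and it held without the mouse labelled WT 1 (0.93 ± 0.25, adjusted p = 0.0124). At 6 h in WT cells the fold change was 0.59 ± 0.27 (adjusted p = 0.0766, and 5.1e-05 with mouse as a block). At 24 h it was -0.34 in WT and -0.57 in Aim2-/- cells (adjusted p = 0.268 and 0.0655, and 0.00862 and 1.9e-05 with mouse as a block). Over the 24 libraries Il4ra and Il21r had an r of 0.23.

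Il6ra encodes the chain that binds IL-6. It was 323, 317 and 351 CPM in WT and 149, 239 and 188 CPM in Aim2-/- cells at 0 h, and fell at each time in every mouse, to 117, 103 and 89.5 CPM and 70.0, 103 and 66.8 CPM at 24 h. The log2 fold changes were -0.74, -1.12 and -1.68 in WT and -0.54, -0.94 and -1.26 in Aim2-/- cells (SE 0.19 each, adjusted p between 1.0e-07 and 0.0358). The call at 3 h was lost in WT without mouse WT 3 (adjusted p = 0.0520) and in Aim2-/- cells without mouse Aim2-/- 1 or 4, without the 0 h library of Aim2-/- 2 or 4 or the 3 h library of Aim2-/- 1 or 4 (up to 0.254), and with library totals in place of TMM.

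Il6st encodes gp130. In WT cells it was 390, 435 and 442 CPM at 0 h, 339, 487 and 495 CPM at 3 h and 367, 422 and 391 CPM at 6 h, which overlapped, and 107, 108 and 99 CPM at 24 h, which did not. The Aim2-/- values were 317, 395 and 307 CPM at 0 h, 230, 388 and 326 CPM at 3 h, 187, 296 and 212 CPM at 6 h and 91.2, 104 and 76.1 CPM at 24 h. The fall at 24 h was 2.01 ± 0.19 in WT (adjusted p = 4.9e-09) and 1.91 ± 0.19 in Aim2-/- cells (adjusted p = 1.3e-08) on the log2 scale, and in Aim2-/- cells it was called already at 6 h (-0.55 ± 0.18, adjusted p = 0.0151). That call was lost without mouse Aim2-/- 1 or 4 or the 6 h library of either, and without the 0 h library of Aim2-/- 2 (adjusted p up to 0.0887).

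Successive times separated early from late changes. Between 3 and 6 h in WT cells, Il2ra and Il15ra rose further (0.75 ± 0.14 and 0.86 ± 0.22, adjusted p = 6.9e-04 and 0.0059) and Il7r fell, so 3 of 9 members were called against 25.7% of all genes. With mouse as a block 6 were called, while the calls over all 15325 genes rose from 3945 to 5537. Without WT 3 or without WT 4 the Il15ra call was lost (up to 0.0747). Between 6 and 24 h in WT cells 7 of 9 members fell and 0 rose, against 57.6% of all genes called; only Il2ra and Il2rb were not called. The largest of these falls were those of Il7r (2.21 ± 0.21) and Il6st (1.91 ± 0.19), and Il4ra fell by 0.93 ± 0.27 on the log2 scale. The Il4ra call was lost without WT 3 or WT 4 (up to 0.0505), and that of Il6ra without any 1 of the WT mice (up to 0.117).

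In Aim2-/- cells Il2ra rose and Il7r and Il21r fell between 3 and 6 h, 3 of 9 members against 23.3% of all genes. With mouse as a block 6 were called, while the calls over all 15325 genes rose from 3571 to 5438. The Il2ra call (0.46 ± 0.14, adjusted p = 0.0254) was lost without mouse Aim2-/- 1 or 2, or without 1 of 4 single libraries of the 3 mice (up to 0.186). Between 6 and 24 h Il2rg, Il7r and Il6st fell, 3 of 9 against 54.3% of all genes, and 7 were called with mouse as a block. The block adds calls over all genes too: in WT cells over this interval they rose from 8831 to 10011. The Il6st fall in this interval was 1.35 ± 0.19 on the log2 scale (adjusted p = 4.0e-06).

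Per kilobase of exon, which allows genes to be compared, the order of the chains changed with time. At 0 h in WT cells Il21r (227 ± 42.2 CPM per kb, SD, n = 3), Il2rg (206 ± 17.6) and Il7r (203 ± 9.44) led, and Il2ra (17.6 ± 3.66) and Il15ra (1.10 ± 0.404) were lowest. At 24 h Il2rg (167 ± 2.42), Il2rb (140 ± 4.75) and Il2ra (135 ± 1.94) led, and Il7r (7.0 ± 1.64) and Il15ra (6.94 ± 0.426) were lowest and overlapped in their SD. At 24 h in Aim2-/- cells the same 3 chains of the IL-2 receptor led, at 180 ± 1.71, 138 ± 4.08 (Il2ra) and 133 ± 10.6 (Il2rb) CPM per kb.

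**Figure D3:**
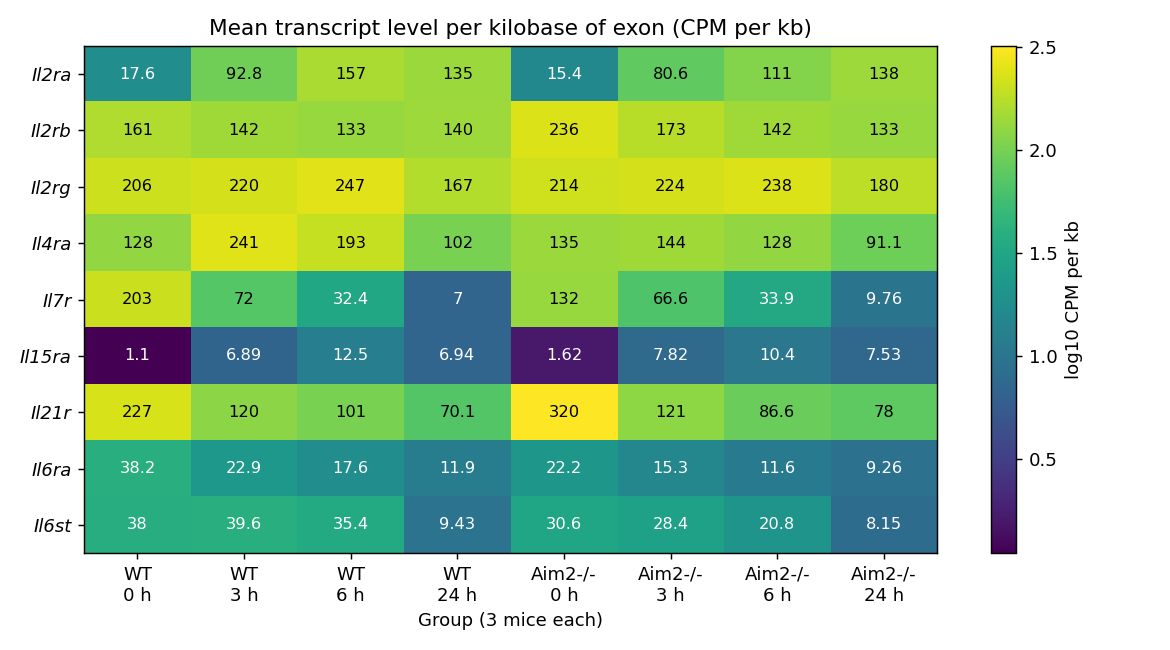
Mean level per kilobase of exon (CPM per kb, printed in each cell; colour on a log10 scale) of the 9 receptor chains (rows) in the 8 groups of 3 mice (columns). Il7r drops from 203 to 7.0 CPM per kb in WT cells while Il2ra goes from 17.6 to 135 CPM per kb.

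The chains of one receptor did not keep a fixed ratio. In WT cells the per-kilobase ratio of Il2ra to Il2rb went from 0.109 ± 0.0127 (SD, n = 3) at 0 h to 0.662 ± 0.135 at 3 h, 1.18 ± 0.0914 at 6 h and 0.967 ± 0.0461 at 24 h. The Aim2-/- values were 0.0653 ± 0.00495, 0.468 ± 0.0987, 0.788 ± 0.152 and 1.04 ± 0.0913. The ratio of Il6st to Il6ra rose from 0.996 ± 0.0649 at 0 h to 2.03 ± 0.294 at 6 h in WT cells, and was 0.796 ± 0.0765 at 24 h. Genotypes did not overlap for Il2ra to Il2rb at 0 h and 6 h, for Il2rb to Il2rg at 0 h or for Il6st to Il6ra at 0 h. The exact two-sided permutation test gave p = 0.1 for each of these 4, the smallest that 3 against 3 mice allow, and an adjusted p of 0.3 over the 12 ratios tested, so this exact test could not reach 0.05 with 3 mice a group. The log2 differences of the means were -0.73 and -0.60 for Il2ra to Il2rb, 0.49 for Il2rb to Il2rg and 0.49 for Il6st to Il6ra. Without the mouse labelled WT 1 these were -0.83, -0.64, 0.61 and 0.45.

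**Figure D4:**
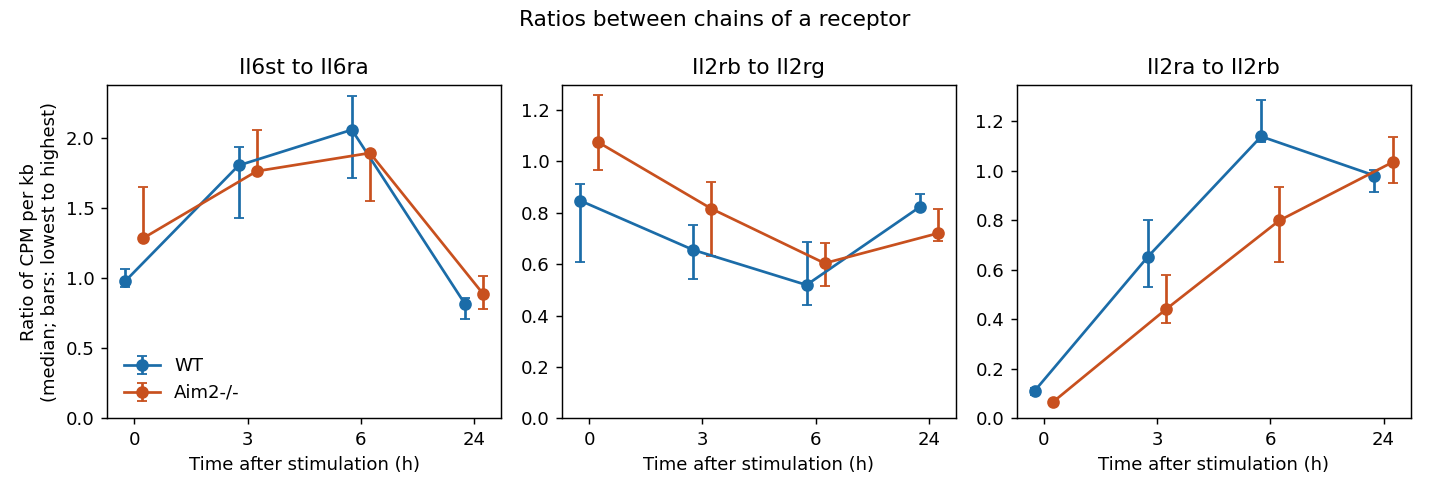
Ratio of CPM per kb between chains of a receptor (y axis, linear, from 0) by time after stimulation (x axis, not to scale) in WT and Aim2-/- cells; points are medians of 3 mice and bars run from the lowest to the highest mouse. Il2ra to Il2rb ends at medians of 0.981 and 1.04, and Il6st to Il6ra is highest at 3 and 6 h.

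The counts of called genes in the lists of ligands, partner chains and signalling genes stand against 32.6%, 51.1% and 71.4% of all genes called in WT cells at 3, 6 and 24 h, and 30.7%, 51.2% and 70.3% in Aim2-/- cells. The ligands of these receptors were mostly scarce. Of 17 ligand genes 15 passed the filter, and in WT cells 4, 5 and 6 rose and 1, 1 and 2 fell at 3, 6 and 24 h; in Aim2-/- cells 5, 8 and 8 rose and 1 fell at each time. Il2, the T cell growth factor, went from 1.34 to 1.85 CPM at 0 h to 139 to 149 CPM at 24 h in WT cells (6.51 ± 0.34, adjusted p = 8.0e-13), and to 86.5 to 118 CPM in Aim2-/- cells. Il4, which drives type 2 helper cells, peaked at 6 h, at 58.0 to 193 CPM in WT cells from 3.72 to 5.02 CPM at 0 h (4.72 ± 0.56, adjusted p = 4.9e-07), and was back to 8.92 to 21.4 CPM at 24 h. Il13, which shares the IL-4Rα chain, rose by 4.65 ± 0.71 at 24 h (adjusted p = 5.8e-06). Lif, which signals through gp130, rose from between 22 and 32.3 CPM to between 96.9 and 161 CPM at 24 h (2.43 ± 0.24, adjusted p = 1.0e-08). Clcf1, another gp130 cytokine, fell from 215 to 224 CPM to 23.5 to 37.2 CPM (-2.81 ± 0.16, adjusted p = 2.1e-12), and Il21 fell by 1.68 ± 0.45 (adjusted p = 0.00217). Ebi3, a subunit of IL-27 and IL-35, rose by 0.64 ± 0.28 (adjusted p = 0.0468). Osm was called at 6 h in WT cells (0.70 ± 0.21, adjusted p = 0.00722). Il9 was at 0 counts in all 6 libraries at 0 h and at 0.925 to 2.53 CPM in WT and 1.01 to 6.21 CPM in Aim2-/- cells at 24 h.

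The remaining ligands passed the filter at low levels. Il15 lay at 0.1 to 0.608 CPM and Il6 at 0.550 to 1.65 CPM in WT cells at 0 h, and in WT cells neither was called at any time. Il11, Il27, Ctf1 and Cntf stayed at or under 0.472 CPM in every WT library. Il7 and Tslp, ligands of IL-7Rα, did not pass the filter and reached at most 0.659 and 0.395 CPM in any library. Il6 was higher in Aim2-/- cells at 0 h, at 3.25 to 7.31 CPM (2.14 ± 0.57 against WT, adjusted p = 0.0357), at 6 h (2.16 ± 0.56, adjusted p = 0.0183) and at 24 h (2.90 ± 0.62, adjusted p = 0.0361), as was Ebi3 at 0 h (1.01 ± 0.28, adjusted p = 0.041) and 6 h (1.09 ± 0.28, adjusted p = 0.0175). Without the mouse labelled WT 1, an alternative chosen after seeing the data, the calls at 6 h held (Il6 1.87 ± 0.58, adjusted p = 0.0469, and Ebi3 1.14 ± 0.34, 0.0417). The others were lost: Il6 at 0 h (1.81 ± 0.59, adjusted p = 0.0775) and 24 h (2.73 ± 0.66, 0.06), and Ebi3 at 0 h (1.04 ± 0.34, 0.0823). The sums of the basophil and mast cell markers (log2 ratio of 2.93 to 3.29 over the 4 times), neutrophil (2.62 to 3.50), myeloid (1.63 to 2.28) and B cell markers (1.11 to 1.52) lay higher in Aim2-/- than in WT libraries without overlap, and their part in these ligand levels was not tested.

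Of 8 further receptor chains that pair with the 9 members, 6 passed the filter. In WT cells 1 rose and 2 fell at 3 h and at 6 h, and 5 fell at 24 h. Il9r fell at 24 h from 4.41 to 8.15 CPM to 0.257 to 0.760 CPM (-3.71 ± 0.48, adjusted p = 5.1e-07). Il13ra1, which pairs with IL-4Rα, fell by 3.66 ± 0.86 (adjusted p = 6.9e-04) from at most 2.20 CPM. Crlf2, which pairs with IL-7Rα to bind TSLP, rose at 3 h (0.58 ± 0.13, adjusted p = 0.0016) and was lower at 24 h (-0.64 ± 0.13, adjusted p = 2.2e-04).

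Downstream of the receptors, 9 kinase and STAT genes all passed the filter. In WT cells 4 rose and 3 fell at 3 h, 2 rose and 4 fell at 6 h, and 2 rose and 6 fell at 24 h. Jak3, the kinase of the common gamma chain, rose at 24 h from 134 to 148 CPM to 219 to 230 CPM (0.67 ± 0.11, adjusted p = 1.1e-05). Jak1, which serves gamma chain and gp130 receptors alike, fell at 24 h from 1318 to 1570 CPM to 326 to 358 CPM (-2.04 ± 0.15, adjusted p = 1.2e-10). Stat5b, an effector of IL-2 and IL-7, fell by 1.95 ± 0.13 (adjusted p = 2.9e-11), and Stat3, an effector of IL-6 and IL-21, by 1.26 ± 0.10 (adjusted p = 5.1e-10).

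Of 9 feedback inhibitors, 4, 5 and 6 rose and 1, 3 and 3 fell in WT cells at 3, 6 and 24 h. Socs1 went from 17.3 to 21.3 CPM at 0 h to 325 to 431 CPM at 3 h (4.27 ± 0.26, adjusted p = 3.7e-10) and stood 3.09 ± 0.25 above its start at 24 h. At 24 h the phosphatase gene Ptpn6 (2.65 ± 0.12, adjusted p = 7.0e-14) and Socs2 (1.75 ± 0.26, adjusted p = 3.8e-06) were higher as well. Socs3, an inhibitor that binds gp130, was 310 to 375 CPM at 0 h and 44.3 to 65.2 CPM at 24 h (-2.69 ± 0.18, adjusted p = 1.7e-11), and thus fell beside Il6st. Pias3 and Pias1 fell by 1.34 ± 0.17 and 1.33 ± 0.08 at 24 h (adjusted p = 5.3e-07 and 1.0e-11).

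Of 10 genes known as targets of these receptors' STAT proteins, 7, 8 and 6 rose and 0, 1 and 2 fell in WT cells at 3, 6 and 24 h. Lta, Myc and Bcl2l1 rose by 3.34 ± 0.23, 3.11 ± 0.21 and 3.10 ± 0.15 at 24 h (adjusted p of at most 4.0e-11), and Pim1 and Mcl1 fell by 1.43 ± 0.08 and 0.42 ± 0.13 (adjusted p = 2.0e-12 and 0.00889). These genes also respond to the T cell receptor itself.

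Of 7 genes known to regulate Il7r, 5, 4 and 5 fell and 1, 1 and 2 rose in WT cells. Klf2, Ets1 and Foxo1 fell by 4.14 ± 0.24, 2.17 ± 0.16 and 1.99 ± 0.09 at 24 h (adjusted p of at most 7.3e-11). Gfi1 rose from 46.1 to 54.1 CPM at 0 h to 216 to 390 CPM at 3 h (2.59 ± 0.24, adjusted p = 8.1e-08). It stood 2.20 ± 0.24 above its start at 24 h, when Gabpa was also called as higher (0.29 ± 0.09, adjusted p = 0.00707). The list holds both activators and repressors of Il7r, and their part in its fall was not tested. Of the proteases that cleave IL-6Rα and other receptors from the cell surface, Adam10 rose (0.67 ± 0.10, adjusted p = 6.7e-06) and Adam17 fell (-0.56 ± 0.07, adjusted p = 7.4e-07) at 24 h.

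Genes whose log2 CPM followed each member most closely over the 24 libraries were Klhl24, Fbxl20 and Nipal3 for Il7r (Pearson r of 0.993, 0.993 and 0.992), Sh3bp2, Lcp1 and Ly6a for Il15ra (0.986, 0.977 and 0.967), and Junb, Tob2 and Man1b1 for Il21r (0.984, 0.982 and 0.981). For Il6st they were Bach1, Etv3 and Prkch (0.983, 0.982 and 0.980), for Il2ra Myc, Trmt61a and Aen (0.980, 0.979 and 0.973), and for Il6ra Dgkd, Map3k9 and Rbm33 (0.966, 0.965 and 0.964). The likeness was lower for Il2rb, with Dusp16 at 0.949, Il2rg, with Trac at 0.939, and Il4ra, with Daxx at 0.912. Among the members themselves the most opposed were Il2ra and Il21r (r of -0.927). These values describe libraries that share mice, depth and the stimulus.

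Between genotypes at 0 h 3 of 9 members were called, against 5.23% of all genes. Il2rb and Il21r were higher in Aim2-/- cells (0.55 ± 0.12 and 0.49 ± 0.12 on the log2 scale, adjusted p = 0.0173 and 0.0225) and Il6ra was lower (-0.78 ± 0.19, adjusted p = 0.0256), each with groups that did not overlap. Il7r also did not overlap, at 477 to 733 CPM in Aim2-/- and 895 to 973 CPM in WT cells, and was not called (-0.62 ± 0.20, adjusted p = 0.0667). Without the mouse labelled WT 1 the 3 calls held, at 0.59 ± 0.14, 0.35 ± 0.10 and -0.80 ± 0.22 (adjusted p = 0.0245, 0.0416 and 0.0419). Without any 1 of Aim2-/- 1, Aim2-/- 4, WT 3 or WT 4, 0 of 9 members were called, with adjusted p of up to 0.185, 0.189 and 0.187 for Il2rb, Il21r and Il6ra. Calls over all genes at 0 h were also fewest without WT 3, so these losses do not set the members apart from other genes. Single 0 h libraries mattered as well. The Il21r call was lost without that of Aim2-/- 1, Aim2-/- 4, WT 1 or WT 3. The Il2rb call was lost without that of Aim2-/- 1 or WT 3, and the Il6ra call without that of Aim2-/- 1, Aim2-/- 4, WT 3 or WT 4. With only the libraries compared, the calls of Il2rb and Il21r were lost.

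At 0 h the B cell, myeloid, neutrophil, basophil and mast cell, and NK cell marker sums lay higher in Aim2-/- libraries without overlap. The sums of naive and regulatory T cell markers overlapped between genotypes. NK cells, whose marker sum at 0 h was 98.6 to 119 CPM in Aim2-/- and 35.8 to 56.1 CPM in WT libraries, are known to express Il2rb, and B cells are known to express Il21r. The 4 naive T cell markers, of cells known for high Il7r and Il6ra, summed to 2649 to 4029 CPM in Aim2-/- and 4003 to 5506 CPM in WT libraries (log2 ratio -0.47, exact permutation p = 0.2, adjusted p = 0.286 over 40 marker tests). For the NK cell sum the exact permutation test gave p = 0.1, the smallest possible (adjusted p = 0.182). Regulatory T cells, known for high Il2ra and Il2rb, had 3 markers that summed to 838 to 1024 CPM in Aim2-/- and 562 to 864 CPM in WT libraries at 0 h. Il2ra itself was not called between genotypes at 0 h. The part of these cells in the differences was not tested.

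**Figure D5:**
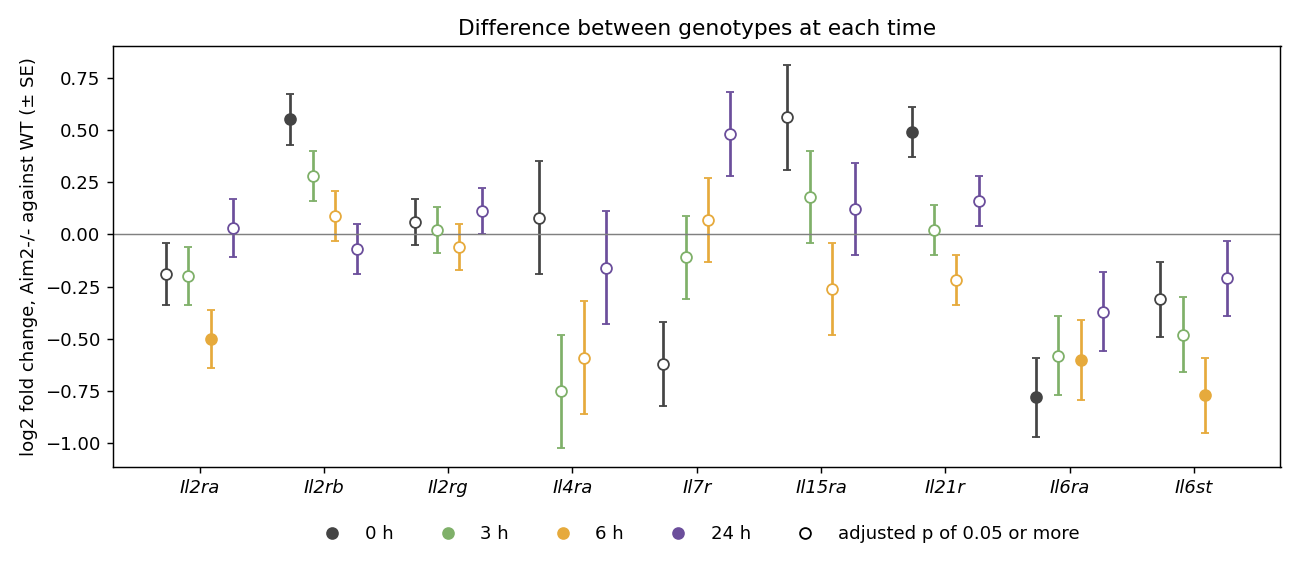
Log2 fold change between genotypes (y axis, Aim2-/- against WT, ± SE of the edgeR fit) of each receptor chain at 0, 3, 6 and 24 h, n = 3 mice a group; filled points have an adjusted p under 0.05. Il6ra lies below 0 at each time, and the largest positive value is that of Il15ra at 0 h (0.56 ± 0.25), which was not called.

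At 3 h 0 of 9 members were called between genotypes by edgeR, 0 by DESeq2 and 0 by limma-voom, against 0.294% of all genes in edgeR. In edgeR 4 members had an unadjusted p under 0.05, as did 2350 of 15325 genes. The 4 members were Il2rb (0.28 ± 0.12), Il4ra (-0.75 ± 0.27), Il6ra (-0.58 ± 0.19) and Il6st (-0.48 ± 0.18), with adjusted p between 0.176 and 0.271. Without the mouse labelled WT 1, Il2rb, Il6ra and Il6st stood at 0.32, -0.63 and -0.64 (adjusted p = 0.211, 0.126 and 0.0895), and 1 member was called: Il4ra, at 1491 and 1882 CPM in the remaining WT mice and 630 to 1109 CPM in Aim2-/- cells (-0.97 ± 0.23, adjusted p = 0.0326).

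At 6 h 3 of 9 members were called, against 15.8% of all genes, and all 3 were lower in Aim2-/- cells without overlap. Il2ra was lower by 0.50 ± 0.14 on the log2 scale (adjusted p = 0.0286), Il6ra by 0.60 ± 0.19 (0.0383) and Il6st by 0.77 ± 0.18 (0.0145). Without the mouse labelled WT 1, Il6st remained called (-0.82 ± 0.20, adjusted p = 0.02), Il2ra and Il6ra did not (-0.46 ± 0.16 and -0.54 ± 0.22, adjusted p = 0.0742 and 0.114), and Il4ra and Il21r were called (-0.81 ± 0.23 and -0.32 ± 0.09, adjusted p = 0.0332 and 0.0408). Without any 1 of Aim2-/- 1, Aim2-/- 4, WT 3 or WT 4, 0 of 9 members were called, with adjusted p of up to 0.16 for Il2ra, 0.163 for Il6ra and 0.106 for Il6st. A smaller group lowers the power for every gene, and calls over all genes in these runs are not given here. These losses therefore do not set the members apart from other genes. At 6 h the myeloid sum was 58.8 to 190 CPM in Aim2-/- and 23.1 to 48.2 CPM in WT libraries and the regulatory T cell sum 697 to 899 and 438 to 664 CPM, and their part in these differences was not tested.

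At 24 h 0 of 9 members were called by edgeR, DESeq2 or limma-voom, against 0.666% of all genes in edgeR. In edgeR 1 member had an unadjusted p under 0.05, as did 3134 of 15325 genes. This member was Il7r, at 0.48 ± 0.20 (adjusted p = 0.194, and 0.51 ± 0.25 with 0.293 without the mouse labelled WT 1). When counts were added up over the 4 times of each mouse, edgeR and limma-voom called 0 of 9 members, against 0.0117% of 17163 genes in edgeR. DESeq2 called 3 members (Il2ra, Il6ra and Il6st), against 1725 of all genes. In edgeR 6 members had an unadjusted p under 0.05, as did 4004 of the 17163 genes. Mouse Aim2-/- 2 lay nearest to WT in several of these genes: without it Il7r was also called at 0 h, Il6ra and Il6st at 3 h, Il6ra at 24 h, and Il7r, Il6ra and Il6st over mouse sums. Without this mouse the calls over all genes at 0 h rose too, from 802 to 2139. Calls over all genes without it are not given here for 3 h, 24 h or mouse sums. The gains there therefore do not set the members apart from other genes. With all 6 mice the lowest adjusted p over sums was that of Il6ra (-0.62 ± 0.14, adjusted p = 0.127; -0.61 ± 0.17 and 0.128 without the mouse labelled WT 1). Il6st, Il7r, Il2ra, Il2rb and Il21r stood at -0.47, -0.34, -0.22, 0.26 and 0.24, with adjusted p between 0.144 and 0.203.

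Whether stimulation acted differently in the genotypes was tested as an interaction. In the fit of group means 0 of 9 members were called at 3, 6 and 24 h, against 0%, 0.0261% and 0% of all genes. In that fit 2, 4 and 2 members had an unadjusted p under 0.05, as did 653, 2019 and 1825 of 15325 genes. DESeq2 called 0, 1 and 2 members, against 0, 305 and 186 of all genes, and limma-voom 0 members at each time. With mouse as a block, each mouse is compared with its own 0 h library. The block gave 1, 2 and 2 called members, against 9, 717 and 424 of 15325 genes. Il4ra changed by 0.83, 0.77 and 1.08 (log2) from 0 to 3 h in WT 1, 3 and 4 and by -0.20, 0.34 and 0.01 in Aim2-/- 1, 2 and 4, without overlap, and the mouse labelled WT 1 lay with the other WT mice. The interaction was -0.83 ± 0.38 (adjusted p = 1) in the fit of group means and -0.85 ± 0.14 (adjusted p = 0.0244) with the block at 3 h, and -0.67 ± 0.38 (0.473) and -0.68 ± 0.14 (0.0143) at 6 h.

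Il21r changed by -1.02, -1.19 and -1.26 from 0 to 6 h in WT and by -2.07, -1.77 and -1.82 in Aim2-/- mice (interaction -0.72 ± 0.16, adjusted p = 0.0761, and -0.73 ± 0.12, 0.00984, with the block). Il2rb changed by -0.30, 0.12 and -0.40 from 0 to 24 h in WT and by -1.11, -0.56 and -0.78 in Aim2-/- mice (-0.62 ± 0.17, adjusted p = 0.149, and -0.63 ± 0.14, 0.0203, with the block). Il7r changed by -4.83, -5.19 and -4.62 from 0 to 24 h in WT and by -3.09, -4.11 and -4.07 in Aim2-/- mice (1.10 ± 0.28, adjusted p = 0.134, and 1.13 ± 0.21, 0.00833, with the block). The other interactions with an unadjusted p under 0.05 were those of Il21r at 3 h (-0.48 ± 0.16) and of Il2rb (-0.45 ± 0.17), Il7r (0.69 ± 0.28) and Il15ra (-0.82 ± 0.33) at 6 h, with adjusted p of 0.247 to 1, and 0.0511 to 0.193 with the block. For Il21r, Il2rb and Il7r the levels at 0 h did not overlap between genotypes, and neither did the changes of the mice. The blocked test rests on these same changes, so their lack of overlap adds no separate support. Without the mouse labelled WT 1, in the fit of group means, the interactions were -0.85 ± 0.32 for Il4ra at 3 h, -0.67 ± 0.13 for Il21r at 6 h, -0.66 ± 0.20 for Il2rb and 1.11 ± 0.35 for Il7r at 24 h, with adjusted p between 0.0722 and 1. Without mouse Aim2-/- 2 the Il7r interaction at 24 h was called in that fit. The NK cell marker sum was higher in Aim2-/- libraries at 0 h and overlapped between genotypes at 24 h, at 17.9 to 27.3 CPM in Aim2-/- and 14.9 to 21.9 CPM in WT libraries, and its part in the Il2rb course was not tested.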

How the data were processed

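Per the labels and the methods of the study, stranded mRNA libraries of splenic CD4+ T cells were sequenced, and after alignment with STAR to GRCm38 (Ensembl 94 annotation) the authors deposited raw counts per gene, not normalized, for 54446 identifiers in 24 libraries; the use of strand in counting was not stated. Symbols, positions and exon lengths came from GENCODE M21 of the same build, which matched 54409 identifiers. Library totals were 19715161 to 21627018 counts. The counts were fitted with edgeR 4.0.16 (R 4.3.3): quasi-likelihood F test, two-sided, all 24 libraries, 8 group means, TMM, filterByExpr with a minimum count of 10, Benjamini-Hochberg adjustment within each comparison and a threshold of 0.05. The biological coefficient of variation was 18.6%. Log2 CPM used a prior count of 2, and SEs came from the fit. The fit was tested on simulated data.

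The 4 libraries of a mouse share an animal by their labels. Their deviations from the group means correlated at 0.139 to 0.567 over 36 pairs, against -0.432 to 0.074 over 72 pairs of different mice. Blocked values are therefore given where they changed a call against 0 h or of an interaction. Between successive times only the number of members called with the block is given. Alternatives were DESeq2 1.42.0, limma-voom 3.58.1, other scalings, no filter, only the libraries compared, the replicate block and leaving out each library or mouse.

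The genes, lists and tests were chosen with earlier results of these data known. Named were the 9 members, Aim2, the ligands past the filter, per list up to 3 rises and 3 falls with the largest change in WT cells at 24 h among called genes with at least 1 CPM, and the 3 genes most like each member. A gene that this rule names is not reported here. Fold changes of members are given only where the unadjusted p, or the adjusted p with the block or without the mouse labelled WT 1, was under 0.05. The floor covers counting error only, while the SEs include variation between mice.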

Additional observations from a re-analysis of the deposited data

Results flagged for a closer look

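With mouse as a replicate block, 5 interactions of genotype and stimulation passed an adjusted p of 0.05 in edgeR's test, while in the fit of group means none of these 5 did. Over all 15325 genes the block called 9, 717 and 424 interactions at 3, 6 and 24 h. The response of Il4ra was smaller in Aim2-/- than in WT mice at 3 h (-0.85 ± 0.14 on the log2 scale, adjusted p = 0.0244) and at 6 h (-0.68 ± 0.14, adjusted p = 0.0143). The fall of Il21r at 6 h was larger in Aim2-/- mice (-0.73 ± 0.12, adjusted p = 0.00984), as was that of Il2rb at 24 h (-0.63 ± 0.14, adjusted p = 0.0203). The fall of Il7r at 24 h was smaller in Aim2-/- mice (1.13 ± 0.21, adjusted p = 0.00833). In each case the changes of the 3 WT mice, the mouse labelled WT 1 included, did not overlap those of the 3 Aim2-/- mice. The blocked test rests on these same changes, so their lack of overlap adds no separate support. For Il21r, Il2rb and Il7r the levels at 0 h already did not overlap between genotypes.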

How the results depend on the processing

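Of 56 called fold changes of members over time, 44 kept their call in every alternative run, among them the rises of Il2ra and Il15ra and the falls of Il7r and Il21r against 0 h in both genotypes, and 0 of the 70 fold changes given over time reversed. Of the 6 calls between genotypes, 0 kept their call in every alternative, and 0 of the 23 fold changes given reversed. The block added calls between successive times: with mouse as replicate block, 6 members were called in WT and 6 in Aim2-/- cells at 6 h against 3 h (5 with DESeq2 and 5 with no filter in Aim2-/- cells), and 7 in Aim2-/- cells at 24 h against 6 h (5 with no filter). For the interactions the block gave 1, 2 and 2 members at 3, 6 and 24 h, DESeq2 1 at 6 h and 2 at 24 h, and no filter 1 at each of these 2 times. Mouse numbers are shared by different animals of the 2 genotypes and do not pair them; with mouse number as replicate block 5, 3, 4 and 1 members were called between genotypes at 0, 3, 6 and 24 h and 3 over mouse sums, where DESeq2 also called 3 and no filter 1. With only the libraries compared 1 was called at 0 h, and with no filter 3 at 3 h and 4 at 6 h. Leaving out 1 library or mouse gave 0 to 4 called members at 0 h, 0 to 2 at 3 h, 0 to 3 at 6 h and 0 to 1 at 24 h, 0 to 1 for the interaction at 24 h and 0 to 3 over mouse sums. The log2 ratio of Il6st to Il6ra between genotypes at 3 h (0.12) lay between -0.01 and 0.21 without 1 mouse. The cause was not tested. Counts over all genes moved most between genotypes: at 0 h 802 became 1553 with DESeq2, 1499 with no filter, 3613 with the number block and 317 with only the libraries compared, and lay between 30 (without WT 3) and 2139 (without Aim2-/- 2) with 1 library or mouse left out. At 3 h 45 became 314, 775, 2324 and 2 with these settings, at 6 h 2421 became 5516 with the number block and 979 with only the libraries compared, and at 24 h 102 became 787, 962, 3235 and 0, and 5 with limma-voom. Over mouse sums 2 became 1725 with DESeq2, 542 with no filter and 2089 with the number block. The interactions, 0, 4 and 0 genes, became 9, 717 and 424 with mouse as replicate block, and 0, 305 and 186 with DESeq2. Scaling by library totals shifted the median over all genes by up to 0.12 (log2), at 3 and 6 h in Aim2-/- cells, and no called member changed direction with it. Depth limits the scarce ligands and partner chains: Osmr and Cntfr reached at most 4 and 1 counts in a library.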
